A study of Mus musculus with 12 samples.

Results

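The genes of the IL-6 family receptors and of the Jak kinases that signal beneath them were searched for Stat3 binding sites in mouse embryonic fibroblasts (MEFs). The 9 genes were *Osmr*, *Lifr*, *Il6st*, *Il6ra*, *Il11ra1*, *Cntfr*, *Jak1*, *Jak2* and *Tyk2*, of 21951 protein-coding genes in the mouse annotation (GENCODE M21, mm10). They were chosen by their place in the pathway, with earlier results of these data known, and the rule that picks their summits uses no measured value. Every position of highest ChIP signal (a summit) within 50 kb of an annotated transcription start site of these genes was taken from each of the 5 deposited lists. There were 9 such summits in all, 8 of them in cells treated with LIF.

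Stat3 ChIP-seq, in which DNA bound to Stat3 is precipitated with an antibody (124H6) and sequenced, was performed on 2 replicates of each of 5 conditions. Immortalised MEFs from Stat3 fl/fl embryos had been transduced with Cre-Thy1.1 to delete Stat3 and then, from an MSCV-GFP retroviral vector, with WT-Stat3 (-/-WT cells) or with Stat3-C3S (-/-C3S cells), a mutant made insensitive to oxidation by substituting cysteines that lie in its DNA binding domain. Both lines are sorted, polyclonal populations that lack endogenous Stat3, and Stat3 in them is driven by the vector and not by its own promoter. All cells were starved overnight in 0.5% FBS. The -/-WT cells were left untreated (basal), treated with leukaemia inhibitory factor (LIF, 10 ng/ml, 45 min) or treated with hydrogen peroxide for 1 h. The -/-C3S cells were left untreated or treated with peroxide for 1 h. The peroxide dose is 100 mM in the sample labels and 100 µM in the study's methods. The samples included no -/-C3S cells treated with LIF.

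The lists held 1088 summits for -/-WT cells with LIF, 230 for -/-WT basal, 450 for -/-WT peroxide, and 145 and 223 for -/-C3S cells at baseline and after peroxide. The authors pooled the 2 replicates of each condition for peak calling, so that there is 1 list per condition and no value given here has a replicate error. A difference between lists is a difference between those lists. The score that accompanies each summit has no named unit, and it was used here only to rank summits within a list, with rank 1 as the highest score. The lists hold neither read counts nor depth. The study gives more unique reads per library for LIF-treated cells than for the other conditions. A difference between the LIF list and the other lists therefore cannot be told apart from one of depth in unique reads. The absence of a summit means that none was called and sets no upper limit on binding. They cannot show whether the markers of fibroblasts were expressed.

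Cytokines of the IL-6 family bind a ligand-specific receptor chain and assemble it with gp130, the shared chain encoded by *Il6st*. Jak kinases bound to the tails of these chains then phosphorylate gp130 and the Stat3 that docks on it, and dimers of phosphorylated Stat3 bind DNA at the sis-inducible element (SIE). Stat3 also activates genes of its own pathway, among which Socs3, an inhibitor of gp130 signalling, is the best known. LIF, the cytokine used here, signals through LIFR, the product of *Lifr*, paired with gp130, whereas oncostatin M signals in mouse cells mainly through OSMR, the product of *Osmr*, paired with gp130.

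The sequences at the promoter summits of *Osmr* and *Il6st* are shown first because they held the same 9-base site. The SIE was searched as TTCCNGGAA on both strands within 80 bp of a summit, and sites with up to 1 mismatch were counted. Capitals mark the site, and the forward strand of the genome (mm10, GRCm38.p6 sequence from RefSeq) is given for chr15:6874330-6874358 and chr13:112463940-112463968.
*Osmr* promoter summit: ggggcgggagTTACGGGAAagcgccgggg
*Il6st* promoter summit: gggagccgcgTTACGGGAAtcgcagaggc

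Both sites carried 1 mismatch to the SIE and read TTCCCGTAA on the reverse strand. The flanking bases differed between the genes. The 9-base site, which was picked out after its occurrence in both genes had been seen, occurred in the windows of 21 of the 1088 LIF summits (1.93%) and of 26 of 93459 annotated start sites of protein-coding genes (0.0278%). Among RefSeq promoters, taken from 250 bases before to 50 bases after each start, 37 of 32851 (0.113%) held it. In the LIF list 47 different sites with up to 1 mismatch occurred, each in a median of 8 windows, and 7 of them occurred in more windows than this one. *Osmr* had the highest score of the 21 summits with this site, and *Il6st* was sixth in order of score among them, after summits nearest to *Nras* (rank 53), *Man1a* (rank 66), *Galns* (rank 78) and *Cenpw* (rank 116).

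The sequences around the other summits that bear on the results are given on the forward strand, with 40 bases on each side of the summit where the site lay within it. Capitals mark SIE sites with up to 1 mismatch, or, for *Jak2*, a binding site for AP-1, a factor made of Fos and Jun proteins, searched as TGANTCA on both strands. The places are chr15:6912738-6912818 and chr15:6913934-6914014 for the upstream *Osmr* summits, chr15:7198015-7198043 for *Lifr*, chr13:112417401-112417429 for the upstream *Il6st* summit, chr4:101292185-101292265 for *Jak1* and chr19:29251287-29251367 for *Jak2*.
*Osmr* upstream summit, rank 98: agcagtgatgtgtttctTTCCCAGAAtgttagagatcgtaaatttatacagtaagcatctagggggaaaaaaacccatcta
*Osmr* upstream summit, rank 303: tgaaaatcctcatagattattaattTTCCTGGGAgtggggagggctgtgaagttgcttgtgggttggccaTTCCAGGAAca
*Lifr*: tttcaggagtTTCTGGGAAtgcataaaaa
*Il6st* upstream summit: ctgccatttcTTCCCCGAAtccactcccc
*Jak1*: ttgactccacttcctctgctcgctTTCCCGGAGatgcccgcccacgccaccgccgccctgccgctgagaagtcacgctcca
*Jak2*: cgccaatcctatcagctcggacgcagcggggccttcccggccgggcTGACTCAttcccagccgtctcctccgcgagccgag

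Of the 9 genes, 5 had a summit within 50 kb in the -/-WT LIF list, namely *Osmr* with 3 summits, *Il6st* with 2, and *Lifr*, *Jak1* and *Jak2* with 1 each. Among all protein-coding genes, 1620 of 21951 (7.38%) had a LIF summit at this distance. In the -/-WT basal list only *Osmr* had a summit, against 0.615% of protein-coding genes. None of the 9 genes had a summit in the -/-WT peroxide list, the -/-C3S basal list or the -/-C3S peroxide list, in which the shares of all protein-coding genes were 1.15%, 0.41% and 0.574%. The 0 counts are to be read against these low shares and the fewer unique reads of those libraries. Within a promoter, defined as 5 kb upstream to 0.5 kb downstream of a start site, 3 of the 9 genes had a LIF summit (*Osmr*, *Il6st* and *Jak2*), against 1.62% of protein-coding genes. In the -/-WT basal list 1 of 9 did, which was again *Osmr*, against 0.0273%.

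**Figure D1:**
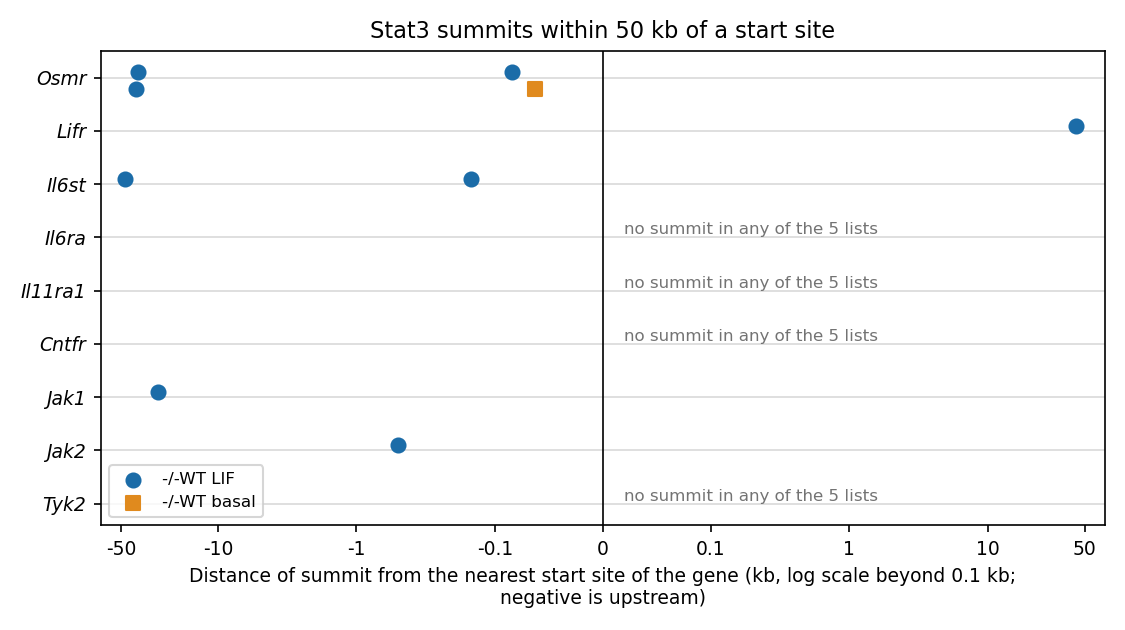
Distance of each summit from the nearest annotated start site of its gene (x axis, kb, log scale beyond 0.1 kb, negative values upstream) for the 9 genes (rows). Circles are summits of the -/-WT LIF list and the square is the -/-WT basal summit at *Osmr*. Summits of *Osmr*, *Il6st* and *Jak2* lay within 1 kb upstream of a start site, *Jak1* and the other *Osmr* and *Il6st* summits lay 26.9 to 46.7 kb upstream, and *Lifr* was the single gene with its summit downstream.

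The length of sequence searched differed between genes, because a gene with start sites far apart is searched over a wider region. It was 210.2 kb for *Jak1*, 168.5 kb for *Il11ra1*, 163.7 kb for *Lifr*, 150.4 kb for *Osmr*, 133.1 kb for *Cntfr*, 111.0 kb for *Il6st* and 100.0 to 103.9 kb for *Il6ra*, *Jak2* and *Tyk2*, with a median of 102.8 kb over protein-coding genes. Of the protein-coding genes with 150 kb or more searched, 10.4% had a LIF summit, as did 3 of the 4 receptor and kinase genes in that class. Of those with less than 150 kb, 6.94% had one, as did 2 of 5 (*Il6st* and *Jak2*).

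*Osmr* (ENSMUSG00000022146, chr15:6813577-6874969, minus strand), which encodes the oncostatin M receptor chain, had the highest-scoring summit of the 9 genes. It lay at position 6874380 in the LIF list, with a score of 135.9 and rank 2 of 1088. The summit was 84 bp upstream of an annotated start site and inside the annotated gene, in the untranslated region of a longer transcript whose start lies 589 bp further upstream. In the RefSeq annotation of the same assembly it was 67 bp upstream of the nearest *Osmr* start. Only 2 protein-coding genes had a higher best score within 50 kb in the LIF list. If only the start sites of protein-coding GENCODE transcripts are considered, this summit is not a promoter summit, and the count of promoters with a LIF summit is 2 of 9.

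The summit in the -/-WT basal list lay at position 6874359, 21 bp from that of the LIF list. Its score of 6.165 gave rank 191 of 230 in the basal list. Scores of different lists are not on a shared scale, so that the 2 values cannot be set against each other as amounts of binding. The 9-base SIE site was centred 36 bp from the LIF summit and 15 bp from the basal summit, on the same side of both. An AP-1 site, TGAATCA, was centred 73 bp from the LIF summit and 52 bp from the basal summit, again on that side.

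In the comparison of lists, 3 LIF summits had a -/-WT basal summit within 200 bp, and their nearest genes were *Stat3*, *Osmr* and *Junb*, which encodes an AP-1 subunit. The *Stat3* promoter also had a summit in the -/-WT peroxide list, 5 bp from the LIF summit, whereas no peroxide summit lay closer to *Osmr* than 3010 kb. Most basal summits lay in repeats. The window of 161 bases around the summit was repeat-masked throughout for 225 of the 230 basal summits, and the *Osmr* window was among 3 without a masked base, with those nearest to *Junb* and *Gpam*. *Junb* was also the 1 other protein-coding gene that shared the pattern of *Osmr*, a promoter summit in the LIF and -/-WT basal lists and in no other.

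Upstream of *Osmr* there were 2 more LIF summits in intergenic sequence, about 1 kb apart. The nearer one, at 6912778, was 37.8 kb upstream of the start and had a score of 25.78 (rank 98), with the site TTCCCAGAA centred 19 bp from the summit. The other one, at 6913974, was 39.0 kb upstream and had a score of 14.7 (rank 303), and it was the single summit near the 9 genes with the full SIE consensus, TTCCAGGAA, centred 34 bp away. It also held TTCCTGGGA and TTCCTGAAA, each with 1 mismatch. *Osmr* was the nearest gene of any kind to both summits. Of the 1620 genes with a LIF summit within 50 kb, 69 (4.26%) had 3 or more.

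Between 50 and 100 kb upstream of *Osmr* lay another 3 LIF summits, which were not counted. They were 59977 bp (score 2.537, rank 1072), 94.1 kb (score 6.184, rank 795) and 97.0 kb (score 8.305, rank 630) from the start. Of the 6 LIF summits between the *Osmr* promoter and the start of *Lifr*, 216 kb further along the chromosome, all were nearest to *Osmr* among protein-coding genes. In rank they fell from 2 at the promoter to 98 and 303 in the pair of counted upstream summits, and lay between 630 and 1072 beyond 50 kb.

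**Figure D2:**
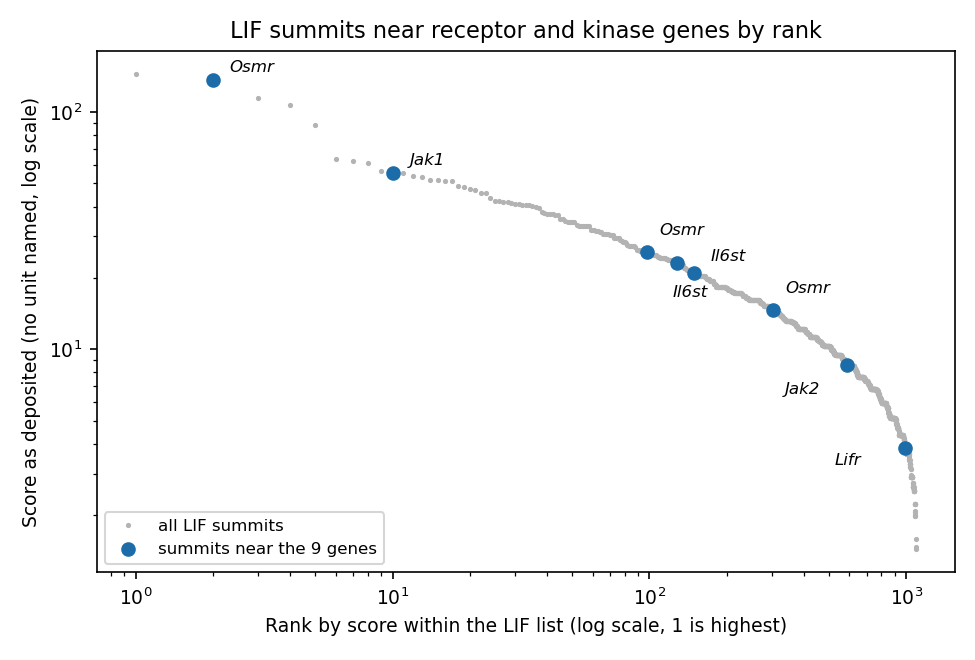
Score as deposited (y axis, log scale, no unit named) against rank within the -/-WT LIF list (x axis, log scale) for all 1088 summits (grey) and for the 8 summits within 50 kb of the 9 genes (blue, with gene names). *Osmr* (rank 2) and *Jak1* (rank 10) stood at the upper end, and *Jak2* (rank 589) and *Lifr* (rank 992) below the median of the list.

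*Lifr* (ENSMUSG00000054263, chr15:7090614-7197489, plus strand) encodes the chain that binds LIF itself, and it is the neighbour of *Osmr* on chromosome 15. It had the lowest-scoring summit of the 9 genes, at position 7198067, with a score of 3.844 and rank 992 of 1088. The summit was intergenic, 578 bp beyond the annotated end of the gene. It entered the count through an internal start site 43.7 kb away, whereas the 5′ end of the gene was 107 kb away. The nearest start site of any gene was that of *Egflam*, at 25002 bp, and the nearest RefSeq start of *Lifr* was 57.5 kb away. With the 5′ ends of the genes alone, *Lifr* had no summit within 50 kb and the count was 4 of 9. A TTCTGGGAA site lay 38 bp from the summit. No summit was called at the *Lifr* promoter in any list.

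*Il6st* (ENSMUSG00000021756, chr13:112464070-112510086, plus strand), the gene of the shared chain gp130, had a LIF summit at position 112463921, 149 bp upstream of its start. The score was 23.04, with rank 128 of 1088. The site shared with *Osmr* was centred 33 bp from this summit. The window was rich in G and C (67.7%, with 19 CpG dinucleotides) and had no masked base. Of the 351 other protein-coding genes with a promoter summit in the LIF list alone, the nearest in score were *Irf2* (22.64), *Cd63* and *Cebpd* (both 23.76).

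The other *Il6st* summit, at 112417360, was 46.7 kb upstream, with a score of 20.95 and rank 149. It lay in an exon of the non-coding RNA gene *2810403G07Rik*, 5 bp from its start, so that a gene other than *Il6st* was closest to it. Among protein-coding genes *Il6st* was nearest. In RefSeq the same position was in an intron of *Gm33905*. The site TTCCCCGAA was centred 55 bp from the summit. Of the genes with a LIF summit within 50 kb, 16.2% had 2 or more.

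*Il6ra*, *Il11ra1* and *Cntfr* encode the ligand-binding chains for IL-6, IL-11 and ciliary neurotrophic factor, and none of them had a summit within 50 kb in any list. The nearest LIF summit was 335 kb from *Il6ra* (ENSMUSG00000027947, chr3:89864059-89913196, minus strand). It was 847 kb from *Il11ra1* (ENSMUSG00000073889, chr4:41699989-41769474, plus strand) and 811 kb from *Cntfr* (ENSMUSG00000028444, chr4:41657498-41697089, minus strand). These neighbours on chromosome 4 share that nearest summit.

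The region of *Cntfr* is duplicated in the reference genome, which bears on its 0 counts. It bears on those of *Il11ra1* as well, because the region searched for *Il11ra1* contains the *Cntfr* promoters. All 6 RefSeq promoters of *Cntfr* had 3 or 4 further copies, with at least 97.4% identity over the promoter. Of these, 2 lay on chromosome 4 and the others on unplaced or alternate sequences, which were not told apart. The other 10 promoters of these genes had no such copy, and neither did the 9 windows around the summits. No summit of any list lay within 50 kb of the copies on chromosome 4. The study gives the depth of the libraries in unique reads. Whether this excludes reads that map to several places, as opposed to duplicate reads, is not given in the sources used here. The part of the duplication in the absence of peaks near *Cntfr* and *Il11ra1* was not tested.

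*Jak1* (ENSMUSG00000028530, chr4:101152367-101265282, minus strand), a kinase that binds the tail of gp130, had no promoter summit and yet the second highest score of the set. At position 101292225, it was 26.9 kb upstream of the 5′ end, with a score of 55.2 and rank 10 of 1088. Within 50 kb, 24 protein-coding genes had a higher best score. *Jak1* was the nearest protein-coding gene, but the non-coding gene *Gm12801* had a start site 8.0 kb away. In GENCODE the position was intergenic, whereas in RefSeq it lay in an exon of the non-coding RNA *Gm12796*. The site TTCCCGGAG was centred 12 bp from the summit. Although it was far from a coding gene, the window had 70.8% G and C with 18 CpG dinucleotides. The LIF promoter summits of *Il6st* (67.7%, 19) and *Jak2* (71.4%, 20) had similar values. That of *Osmr* had lower ones (59.6%, 8). The median G and C content over all LIF summits was 50.9%.

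*Jak2* (ENSMUSG00000024789, chr19:29251828-29313080, plus strand) encodes the kinase that also serves the growth hormone and erythropoietin receptors. Its LIF summit at 29251327 was 501 bp upstream of the start, with a score of 8.642 and rank 589 of 1088, just below the median of the list (9.44). It was the single LIF summit near the 9 genes that lacked an SIE with up to 1 mismatch within 80 bp. The closest match, TTCCCGGCC, had 2 mismatches and was centred 3 bp from the summit. The AP-1 site TGACTCA was centred 9 bp from it. Genes near it in score with the same pattern included *Runx2* (8.632) and *Ten1* (8.708).

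*Tyk2* (ENSMUSG00000032175, chr9:21104068-21131243, minus strand), the kinase with a part in interferon and IL-12 signalling, had no summit within 50 kb in any list. Its nearest LIF summit was 157 kb away. It was thus also beyond the 100 kb tried as an alternative.

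**Figure D3:**
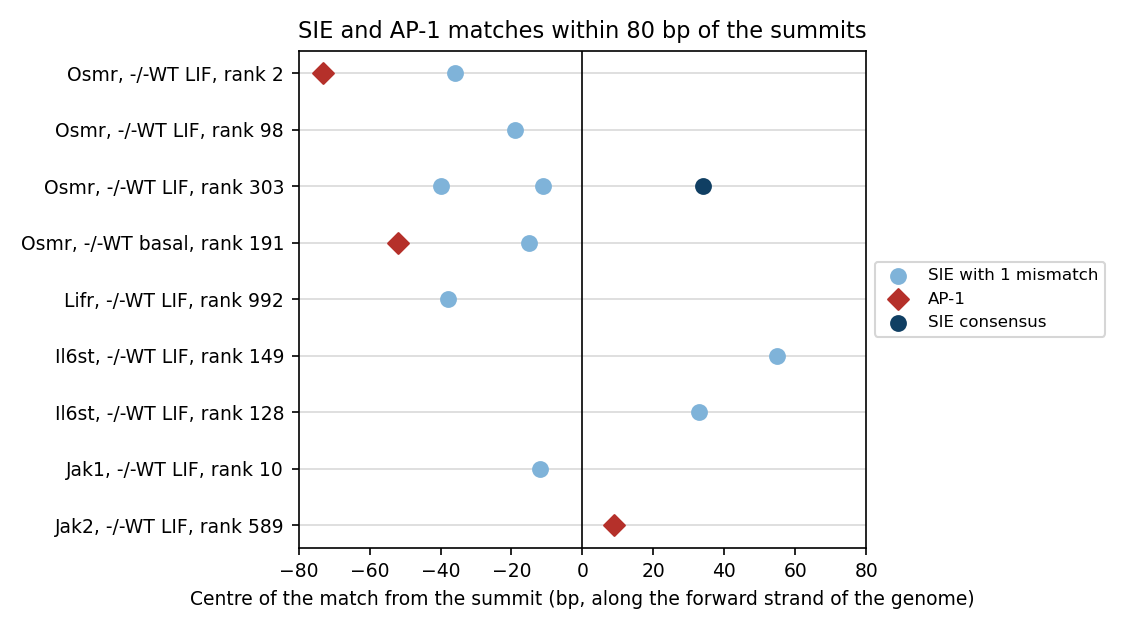
Position of SIE matches (circles, dark for the full consensus and light for 1 mismatch) and AP-1 matches (diamonds) within 80 bp of each of the 9 summits (rows, with the gene, list and rank within the list), in bp along the forward strand of the genome. Every LIF summit but that of *Jak2* had an SIE match, and AP-1 matches were found at *Osmr* and *Jak2*.

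Of the 8 LIF summits, 7 had an SIE with up to 1 mismatch within 80 bp, against 66.6% of all LIF summits and 9.5% of windows around start sites of protein-coding genes. The full consensus was present in 1 of 8, against 15.3% of LIF summits and 0.618% of start sites. The wider motif TTCNNNGAA (GAS), which overlaps the SIE, was found at 4 of 8, against 40.7% and 3.89%. AP-1 sites were found at 2 of 8, against 23.2% and 3.27%. No test of these shares was made, and with 8 windows a single summit makes up 12.5%.

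The promoters of all 9 genes, with or without a summit, were searched for the same motifs in the RefSeq sequences of 300 bases. Of all RefSeq promoters 17.8% had an SIE with up to 1 mismatch. Of the 16 promoters of the 9 genes 3 had it (18.8%), which is near that share. These were 1 promoter each of *Osmr*, *Il6st* and *Il11ra1*. The 16 include 6 of *Cntfr*, most of which overlap and none of which had it. By gene it was found in 3 of the 9, for which no share over all genes was made. The *Osmr* promoter held TCCCGGGAA as well as TTCCCGTAA. In *Il11ra1*, a gene without any summit, the site read TTCCAGCAA. The full consensus and the GAS motif were found in 0 of the 16, against 1.15% and 8.3% of all promoters, so that little can be read from their absence. An AP-1 site was found in 1 of the 16, that of *Osmr*, against 7.81%. A match shows that these letters are present in the window and not that a protein binds there.

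In the 4 lists without LIF the nearest summits were far from these genes, except at *Osmr*. The shortest distance in the -/-WT basal list after *Osmr* was 216 kb, for *Lifr*, and that summit was the one in the *Osmr* promoter. The distances were 1220 to 4850 kb for -/-WT peroxide and 2320 to 10800 kb for -/-C3S peroxide. For untreated -/-C3S cells they were 1360 to 32300 kb for 8 genes, and there was no summit on chromosome 19, where *Jak2* lies. In these 4 lists the median window was 100% repeat-masked, against 0% in the LIF list. The 8 LIF summits near the receptor and kinase genes had between 0 and 21.1% of their windows masked, and 4 had no masked base.

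**Figure D4:**
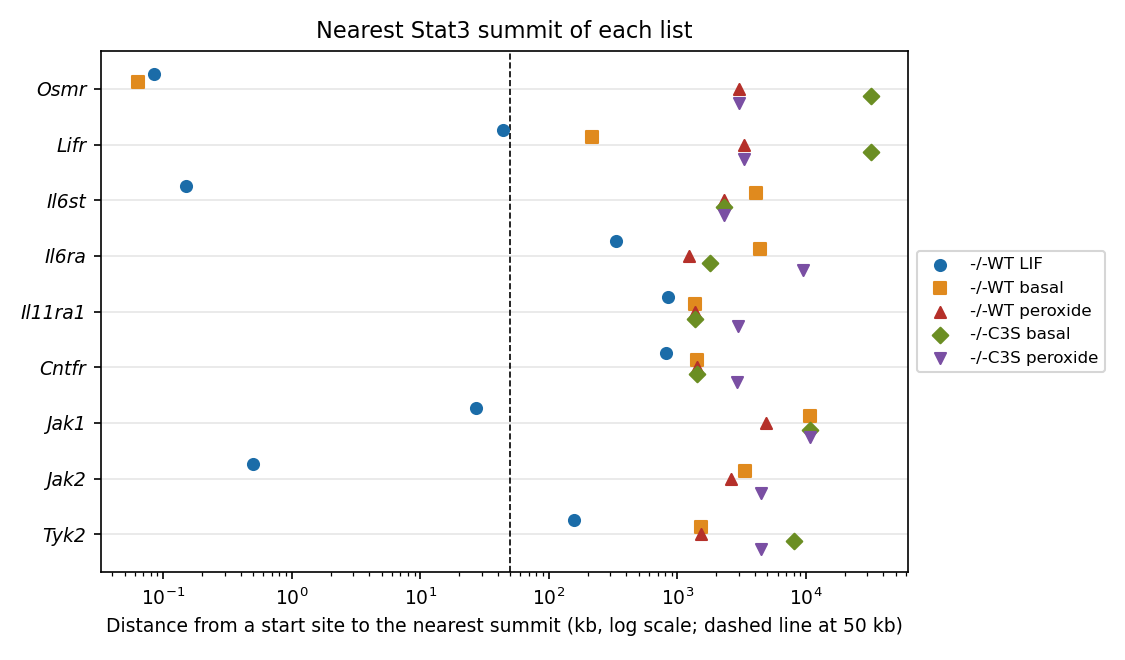
Distance from the nearest start site of each gene to the nearest summit (x axis, kb, log scale) in each of the 5 lists (symbols), with a dashed line at 50 kb. Only LIF summits and the -/-WT basal summit at *Osmr* lay left of the line, and no symbol is drawn for *Jak2* in the -/-C3S basal list, which had no summit on that chromosome.

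Among 74 other genes of the pathway, 19 (25.7%) had a LIF summit within 50 kb and 9 had one in a promoter, against 7.38% and 1.62% of protein-coding genes. The gene lists were chosen from general knowledge of the pathway with earlier results of these data known, and neighbouring genes in a list can share a summit. Of the 12 genes of ligands and ligand subunits, 1 had a summit within 50 kb and 0 had one in a promoter. Of 8 further receptor chains of the family, such as *Il27ra*, *Il31ra*, *Lepr* and *Csf3r*, none had a summit within 50 kb in any list. The receptors of other cytokines that use Jak kinases had summits at 5 of 29 genes, among them *Il4ra*, *Il13ra1*, *Il2rb* and *Ghr*, with 1 in a promoter, that of *Il13ra1*.

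Downstream of the receptors, summits were found at kinase, Stat and inhibitor genes. The fourth kinase, *Jak3*, had a LIF summit 54 bp upstream of a start (score 17.78, rank 205), so that both *Jak2* and *Jak3* but neither *Jak1* nor *Tyk2* had one in a promoter. All 7 Stat genes had a LIF summit within 50 kb, drawn from 8 different summits, and *Stat2*, *Stat3* and *Stat5a* had one in a promoter. The inhibitors had summits at 5 of 17 genes, 4 of them in promoters (*Socs1*, *Socs2*, *Socs3* and *Cish*) and the other at *Ptpn1*, a tyrosine phosphatase. The promoter summit of *Socs3*, the inhibitor that binds gp130, had a score of 34.79 and rank 47, which was below that of *Osmr* and above that of *Il6st*. Outside the LIF list the *Stat3* promoter was the single site of these 74 genes, in the -/-WT basal and the -/-WT peroxide list, and the -/-C3S lists had none.

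**Figure D5:**
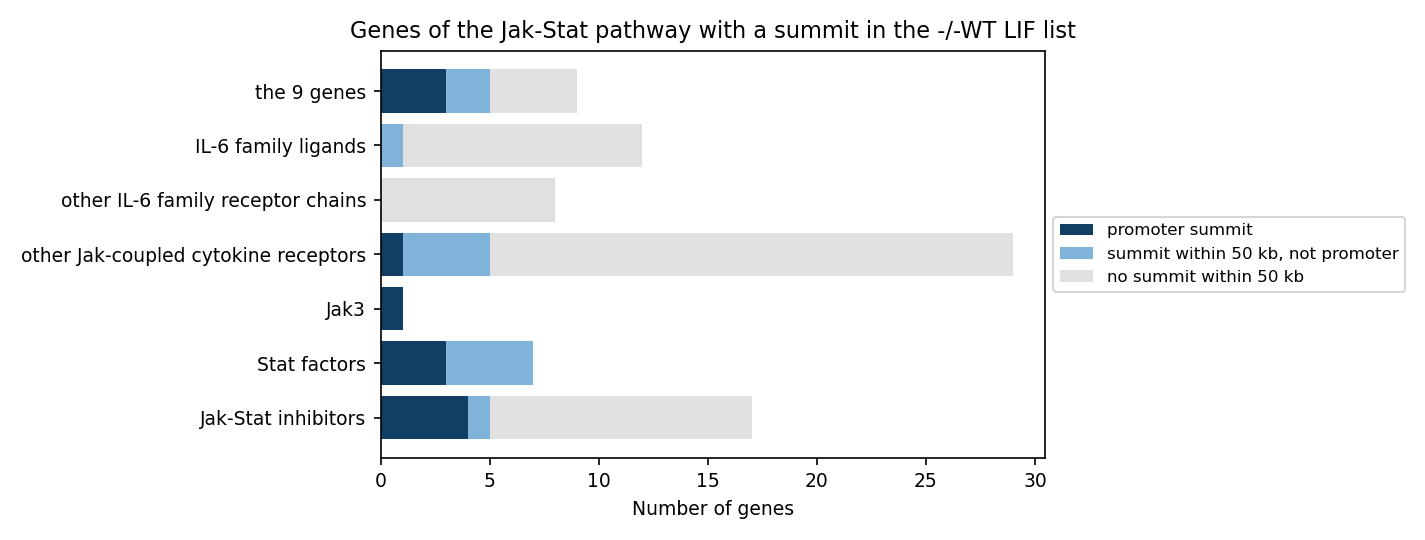
Number of genes (x axis) with a promoter summit (dark), with a summit within 50 kb but not in a promoter (light) and with none (grey) in the -/-WT LIF list, for the 9 receptor and kinase genes and 6 other lists of pathway genes (rows). All 7 Stat genes and 5 of the 9 receptor and kinase genes had a summit, as did 1 of 12 ligands and 0 of 8 other receptor chains. Among all protein-coding genes the share was 7.38%, so that little can be read from the 1 of 12 and the 0 of 8.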

How the data were processed

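Peak summits were taken from the 5 deposited lists in mm10 coordinates, 1 per condition, each made by the authors from 2 pooled replicates. For the basal and LIF lists of -/-WT cells, the study states that peaks had to exceed IgG controls more than 2-fold. The score per summit is as deposited by the authors. The submitters' processing notes name HISAT2, Picard and MACS2, without versions or settings. The input DNA and IgG samples were not analysed.

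The 9 genes and the other gene lists were chosen with earlier results of these data known. All summits lay within GRCm38 chromosomes. Start sites came from GENCODE M21, and sequences and promoters from RefSeq (GRCm38.p6), where 16 promoters of the 9 genes were found and 16 matched the genome. Repeat-masked bases are those in lower case in the reference. Motif windows held 161 bases. Copies were searched with BLAST 2.17.0 (at least 95% identity over 60% of the window). Genes named as alike had the same lists with a promoter summit and the nearest best LIF score, up to 3 per gene. Some genes that this rule or the gene lists cover are not reported here. No test was made, since no list has replicates. Distance and motif searches were tested on planted data. The computations used Python 3.11.15, pysam 0.24.0, samtools 1.23.1 and matplotlib 3.10.9.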

Additional observations from a re-analysis of the deposited data

How the results depend on the processing

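Of 23 alternatives to the counts above 0, 17 left the count within 1.5 times the reported one. Some of these 17 could not have lowered the count, such as a distance of 100 kb. Others lost a gene within that limit. The LIF count fell from 5 to 4 with the 5′ ends of the genes alone. The LIF promoter count fell from 3 to 2 with the start sites of protein-coding transcripts. Another 21 alternatives concerned the 3 lists with a count of 0. Of these, only the 3 that widened the distance to 100 kb could have raised it, and all 3 left it at 0. The number of the 9 genes with a LIF summit fell from 5 to 3 when summits were searched within 10 kb (*Osmr*, *Il6st* and *Jak2*), when only summits scored at or above the median of the list were used (*Osmr*, *Il6st* and *Jak1*) and when a summit counted only for the gene with the nearest start site (*Osmr*, *Il6st* and *Jak2*). The -/-WT basal count fell from 1 to 0 with that same limit, since the *Osmr* summit scored below the median of its list. The LIF summits with an SIE fell from 7 of 8 to 1 with the full consensus only and to 4 with TTCNNNGAA. TTCNNNGAA is a different motif, and the other changes follow from narrower definitions. *Osmr* and *Il6st* were counted under every alternative for the LIF list within 50 kb. No paired analysis was possible because the authors pooled both replicates of a condition before peak calling, and for the same reason no replicate could be left out. Replicate spread cannot be judged from the lists. The libraries without LIF had fewer unique reads by the study's account, so that a gene without a summit may still be bound below the threshold for a peak.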
